A study of Mus musculus with 4 samples.

Results

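Gad1, Gad2, Slc32a1, Slc17a6, Slc17a7, Slc1a2, Slc1a3 and Glul make, package and clear the fast transmitters GABA and glutamate. They were chosen by name for these roles, and all 8 of them were found among the 22376 genes of the Visium files, a spatial assay that captures RNA from a brain section on barcoded discs and marks each captured transcript with a unique molecular identifier (UMI). Sections of midbrain and striatum from 8 mice were used to ask what 1 week of chemogenetic activation of dopamine neurons does to gene expression in and around these cells.

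The 3 GqCNO mice carried a conditional AAV for the excitatory receptor hM3Dq(Gq)-mCherry, injected into the midbrain on both sides, and drank CNO at 300 mg/L in water with 2% sucrose for 1 week. The 3 GqVeh mice carried the same virus and drank 2% sucrose water. The 2 CNO alone mice had no injection and drank the CNO water. All 8 were single-housed males with a running wheel, 3 to 4 months old, and labelled DAT (iCre/iCre), so that Cre is driven from the dopamine transporter locus and the receptor should be expressed in dopamine neurons alone. GqVeh and CNO alone together are the 5 control mice. Each mouse gave 1 section per tissue, 10 μm thick, and the mouse is the replicate. The 4 arrays form 2 pairs. Of the GqCNO mice, 801 and 804 were on pair 1 and 781 on pair 2. Of the GqVeh mice, 802 was on pair 1 and 784 and 785 on pair 2. Of the CNO alone mice, C2W2 was on pair 1 and C1W7 on pair 2.

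GABA is made from glutamate by the decarboxylases Gad1 and Gad2, and the vesicular transporter Slc32a1 (VGAT) loads it into synaptic vesicles. Glutamate is loaded by Slc17a6 (VGLUT2), typical of thalamus and other subcortical neurons, or by Slc17a7 (VGLUT1), typical of cortex and hippocampus. After release, the astrocyte transporters Slc1a2 (GLT-1) and Slc1a3 (GLAST) take glutamate up, and Glul (glutamine synthetase) turns it into glutamine, which neurons reuse. Projection neurons of the striatum and septum are mostly GABAergic, relay neurons of the thalamus are glutamatergic, and some dopamine neurons of the VTA also carry Slc17a6.

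Levels are given as UMIs per 10000 UMIs of a column, which is the average over the discs of 1 region of 1 mouse. The regions are the substantia nigra (SN), VTA and thalamus on the midbrain arrays, and the caudoputamen (CP), lateral septal complex (LSX) and white matter on the striatal arrays. GqCNO mouse 801 has no thalamus column, which leaves 47 columns. The SN rested on 1 to 7 discs and 7779 to 71906 UMIs per mouse, the VTA on 25808 to 350222 UMIs, the thalamus on 80837 to 444790, the CP on 4300381 to 7977003, the LSX on 80525 to 1354667 and the white matter on 119422 to 405313. A count of 0 therefore allows a level of up to 3.86 in the SN of GqCNO mouse 801 and of up to 0.00698 in the shallowest CP column (3 UMIs, counting error only). The authors picked discs from their place in the section and from marker genes, and dropped discs rich in glial markers (Gfap, Aldh1l1, Aif1 or P2ry12). In the SN and VTA they asked for a whole TH-stained cell body under the disc, in injected mice one that was also mCherry-positive. The rule for these discs thus differed between injected and CNO alone mice. None of the 8 genes served this choice. Dropping discs rich in astrocyte markers may still bear on the levels of the clearance genes Slc1a2, Slc1a3 and Glul, and its part in their region differences was not tested. In control mice the region labels went with these markers, of which Th, Ppp1r1b and Mbp were also used by the authors to pick discs, so that their levels describe that choice and are no separate check, with Th at 21.7 (SN), 24.1 (VTA) and 0.0988 (thalamus), Tcf7l2 at 10.4 in the thalamus, Ppp1r1b at 24.0 in the CP and 0.653 in the LSX, and Mbp at 267 in the white matter. A disc holds several cells or parts of cells, and fewer cells of a type cannot be told apart from less RNA per cell.

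Of the 8 genes, 4 lie on chromosome 2 of the GRCm38.p6 assembly (Gad2 at 22621015 to 22693877, Gad1 at 70561303 to 70602014, Slc1a2 at 102658239 to 102790784 and Slc32a1 at 158607260 to 158615747) and 2 on chromosome 7 (Slc17a7 at 45163921 to 45176139 and Slc17a6 at 51621830 to 51671126). Slc1a3 lies on chromosome 15 (8634124 to 8710807) and Glul on chromosome 1 (153899929 to 153909723). The promoter windows of the genes for GABA synthesis and packing and of both vesicular glutamate transporters are shown. These 2 sets differed from the thalamus in opposite directions in the data below. On the striatal arrays only Slc17a7 ran opposite to the genes for GABA, and Slc17a6 did not. Each is 300 bases of the plus strand in RefSeq (GRCm38.p6), 250 before and 50 after an annotated start, and capitals mark the GC box GGGCGG or its complement CCGCCC. The windows of Gad1, Gad2 and Slc32a1 lie wholly inside the gene coordinates given above, so the start used for them is not the outermost one. The windows are chr2:70561879-70562178 (Gad1), chr2:22622077-22622376 (Gad2), chr2:158610508-158610807 (Slc32a1), chr7:51621580-51621879 (the first of 2 starts of Slc17a6) and chr7:45163671-45163970 (Slc17a7).
Gad1: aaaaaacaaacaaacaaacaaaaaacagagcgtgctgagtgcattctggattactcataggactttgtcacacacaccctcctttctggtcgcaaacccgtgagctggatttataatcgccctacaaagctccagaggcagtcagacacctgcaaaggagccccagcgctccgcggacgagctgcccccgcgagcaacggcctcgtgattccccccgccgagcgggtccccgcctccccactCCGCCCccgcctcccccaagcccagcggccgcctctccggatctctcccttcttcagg
Gad2: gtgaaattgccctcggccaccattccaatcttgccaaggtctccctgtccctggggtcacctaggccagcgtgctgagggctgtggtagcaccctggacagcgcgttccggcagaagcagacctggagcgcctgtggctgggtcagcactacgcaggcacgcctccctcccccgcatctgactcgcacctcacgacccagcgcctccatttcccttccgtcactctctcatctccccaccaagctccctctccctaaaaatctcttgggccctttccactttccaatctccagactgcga
Slc32a1: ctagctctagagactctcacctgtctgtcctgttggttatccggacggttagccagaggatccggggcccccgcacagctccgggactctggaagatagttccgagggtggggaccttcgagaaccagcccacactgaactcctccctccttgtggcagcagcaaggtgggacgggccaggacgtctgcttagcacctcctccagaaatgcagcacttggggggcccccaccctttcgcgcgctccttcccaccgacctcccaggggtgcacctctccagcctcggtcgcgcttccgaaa
Slc17a6: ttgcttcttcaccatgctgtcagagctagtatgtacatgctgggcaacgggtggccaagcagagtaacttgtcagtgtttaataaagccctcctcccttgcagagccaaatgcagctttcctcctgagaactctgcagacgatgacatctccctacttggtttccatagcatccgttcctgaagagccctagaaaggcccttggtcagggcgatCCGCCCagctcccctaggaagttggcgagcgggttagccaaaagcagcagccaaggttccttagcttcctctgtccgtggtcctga
Slc17a7: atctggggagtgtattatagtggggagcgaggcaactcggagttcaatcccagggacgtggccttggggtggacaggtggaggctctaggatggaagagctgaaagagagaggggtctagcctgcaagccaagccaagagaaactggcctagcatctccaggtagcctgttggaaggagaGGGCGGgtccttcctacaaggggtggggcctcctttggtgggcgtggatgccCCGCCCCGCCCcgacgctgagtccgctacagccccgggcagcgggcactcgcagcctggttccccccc
The GC box was found on either strand in 35.7% of all 32851 promoter windows of this length. The Slc17a7 window held 3, the Gad1 window and the first Slc17a6 window 1 each, and those of Gad2 and Slc32a1 none. G and C made up 63.7% of the Slc17a7 window, 63.3% of the Slc32a1 window, 61.3% of the Gad2 window, 60% of the Gad1 window and 53.7% of the Slc17a6 window, beside a median of 52.7% over all windows.

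The CP and LSX were dominated by transcripts for GABA. Gad1 reached 4.50, 5.34 and 4.83 in the CP of GqCNO mice 801, 804 and 781, 5.38, 5.46 and 5.0 in GqVeh mice 802, 784 and 785, and 4.94 and 4.20 in CNO alone mice C2W2 and C1W7. In the LSX it was at 7.06, 10.2 and 7.89 in GqCNO mice, 8.98, 8.56 and 7.84 in GqVeh mice and 9.29 and 7.97 in CNO alone mice. No CP value of Gad1 came near any LSX value, while the 3 groups overlapped in both regions. Gad2, the second decarboxylase, lay between 2.69 and 3.36 in the CP and between 3.80 and 8.82 in the LSX over all 8 mice, and Slc32a1 between 2.14 and 2.80 and between 3.81 and 4.66. Of all UMIs of Gad1, Gad2, Slc32a1, Slc17a6 and Slc17a7 in the CP, 46164 of 47216 belonged to the 3 genes for GABA, between 96.0% and 98.8% per mouse. The share was 97.0% to 99.2% per mouse in the LSX. Within the pair of decarboxylases, Gad2 gave 33.0% to 42.0% of the UMIs in the CP of each mouse, 32.3% to 46.4% in the LSX and 29.7% to 45.2% in the white matter.

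**Figure D1:**
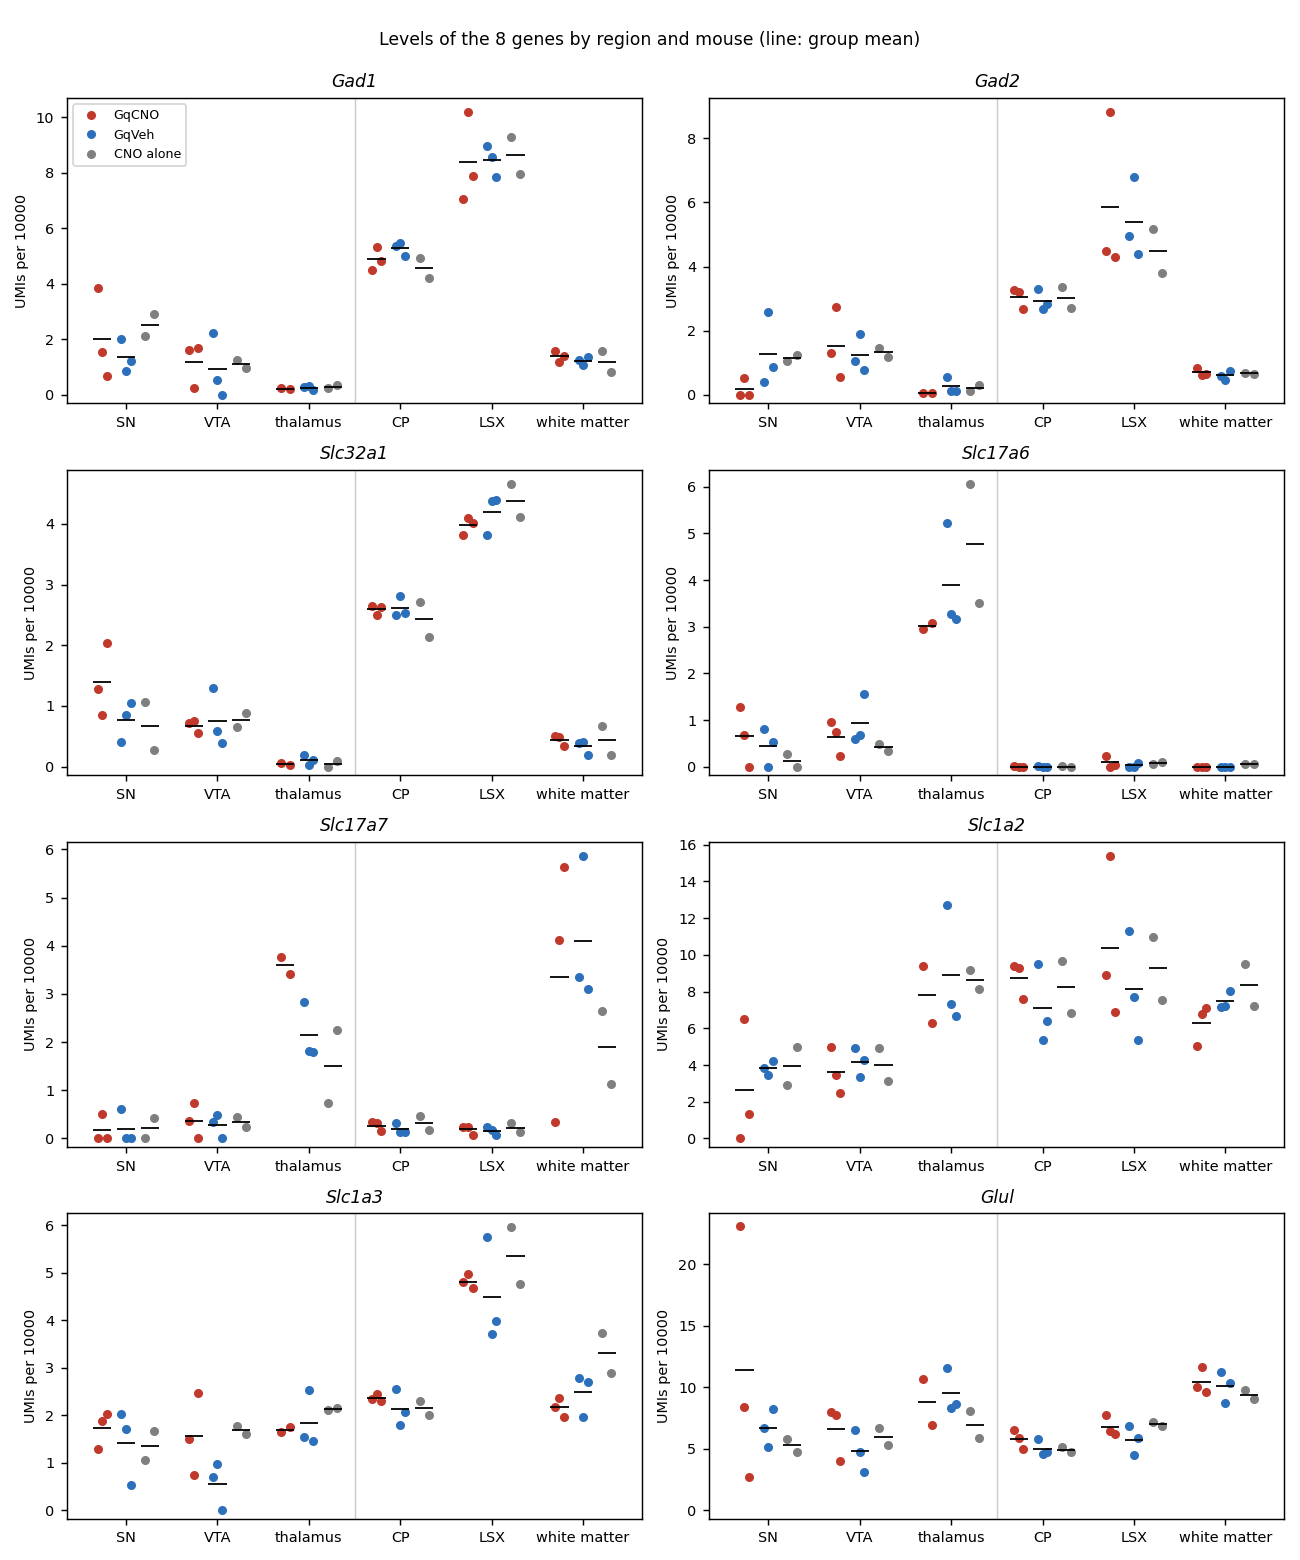
Level of each of the 8 genes (UMIs per 10000 UMIs, with a scale of its own per gene) in the 6 regions, 1 point per mouse and a line at the mean of each group, for GqCNO, GqVeh and CNO alone mice. Slc17a6 peaks in the thalamus, between 2.95 and 6.06, while Gad1 is highest in the LSX, between 7.06 and 10.2.

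In the midbrain sections the same 3 genes were expressed at lower levels, and were scarce in the thalamus. Gad1 was at 3.86, 1.54 and 0.679 in the SN of GqCNO mice, 2.02, 0.859 and 1.23 in GqVeh mice and 2.11 and 2.92 in CNO alone mice, although the value of mouse 801 rests on 3 UMIs and those of mice 781 and 784 on 1 each. In the thalamus it was at 0.247 and 0.206 in GqCNO mice 804 and 781, 0.299, 0.303 and 0.186 in GqVeh mice, and 0.247 and 0.350 in CNO alone mice. Every SN value thus exceeded every thalamic value.

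Slc17a6 marked the thalamus. It was at 2.95 and 3.07 there in GqCNO mice 804 and 781, 5.22, 3.27 and 3.17 in GqVeh mice and 6.06 and 3.50 in CNO alone mice. In the VTA it stood at 0.959, 0.746 and 0.225 in GqCNO mice, 0.586, 0.687 and 1.55 in GqVeh mice and 0.480 and 0.343 in CNO alone mice, so that each mouse had some VTA signal for this glutamate transporter. It was at 0 in the SN of 3 of 8 mice, and 4 UMIs in GqCNO mice and 7 in control mice were all that the CP held.

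Slc17a7 divided the regions differently. In the white matter it was at 0.335, 4.12 and 5.63 in GqCNO mice, 3.35, 5.87 and 3.11 in GqVeh mice and 2.64 and 1.14 in CNO alone mice, with mouse 801 far below the others. The summed level of 10 markers of cortical excitatory neurons was also lowest in that mouse, at 0.670, and between 0.997 and 3.43 in the other 7 white matter columns, and the part of such cells in the Slc17a7 level was not tested. Of the UMIs of Slc17a6 and Slc17a7, Slc17a7 made up 96% to 100% per mouse in the white matter, 98.1% to 100% in the CP and 46.2% to 100% in the LSX. The 3 genes for GABA gave 25.1% to 58.3% of the UMIs of these 5 genes in the white matter of the other 7 mice and 89.7% in mouse 801.

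**Figure D2:**
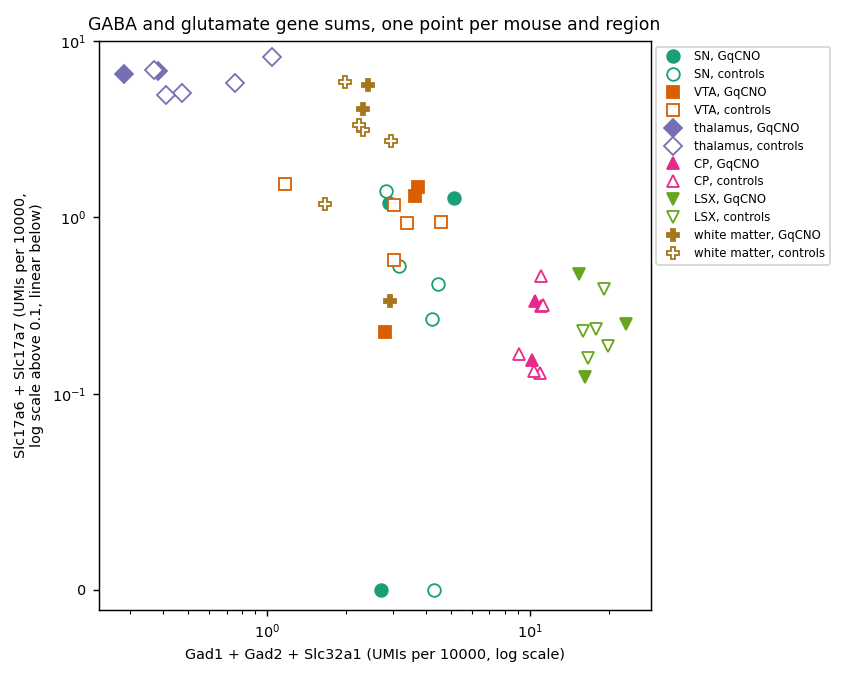
Summed level of Slc17a6 and Slc17a7 against the summed level of Gad1, Gad2 and Slc32a1 (UMIs per 10000 UMIs, log axes, the vertical one linear below 0.1), 1 point per mouse and region, filled for GqCNO and open for control mice. Thalamus columns lie at the upper left, with 4.20% to 11.5% of the UMIs of the 5 genes from the genes for GABA, and CP and LSX columns at the lower right, with 96.0% to 99.2%.

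The genes of glutamate clearance were present in every region. Slc1a2 lay between 6.27 and 12.7 in the thalamus, between 5.37 and 9.68 in the CP and between 5.02 and 9.51 in the white matter of all mice. Slc1a3 was at 4.80, 4.97 and 4.68 in the LSX of GqCNO mice, 5.76, 3.72 and 3.98 in GqVeh mice and 5.96 and 4.77 in CNO alone mice. In the CP it was at 2.35, 2.45 and 2.31 in GqCNO mice, 2.55, 1.79 and 2.06 in GqVeh mice and 2.31 and 2.00 in CNO alone mice, below every LSX value. Glul was highest among the striatal regions in the white matter, at 10.05, 11.7 and 9.62 in GqCNO mice, 11.2, 8.73 and 10.3 in GqVeh mice and 9.76 and 9.07 in CNO alone mice.

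Differences between regions of the same array were tested in the 5 control mice, as log2 differences within a mouse, with limma. Adjusted p-values are Benjamini-Hochberg values over all genes tested in that comparison, and called means an adjusted p under 0.05. Folds and log2 differences are on the scale of log2(level + 0.5) in the midbrain and log2(level + 0.05) in the striatum, which understates the differences of low genes. The arrays were normalized separately by the authors, so no midbrain region was tested against a striatal one.

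The VTA and thalamus differed in all 8 genes, where 24.9% of all 7388 genes tested were called. Gad2 averaged 1.28 ± 0.435 in the VTA and 0.244 ± 0.186 in the thalamus (SD, n = 5 mice), a log2 difference of 1.26 ± 0.201 (SE; adjusted p = 0.000157, limma). Slc32a1 was at 0.760 ± 0.344 in the VTA and 0.0889 ± 0.0770 in the thalamus, higher by 1.07 ± 0.181 on the log2 scale (adjusted p = 0.000277, limma). Both were higher in the VTA of 5 of 5 mice. Gad1 was higher in the VTA of 4 of 5 mice, by 0.74 ± 0.243 (adjusted p = 0.0303, limma), a call lost without GqVeh mouse 802 (adjusted p = 0.183), CNO alone mouse C2W2 (0.135) or CNO alone mouse C1W7 (0.0893).

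The other 5 genes were lower in the VTA than in the thalamus in 5 of 5 mice, where 13.5% of all genes were called lower. Slc17a6 averaged 0.729 ± 0.476 in the VTA and 4.24 ± 1.32 in the thalamus, a log2 difference of -1.98 ± 0.23 (adjusted p = 4.44e-06, limma). Slc17a7 was at 0.303 ± 0.197 in the VTA and 1.89 ± 0.768 in the thalamus (log2 difference -1.54 ± 0.227, adjusted p = 6.52e-05, limma). The clearance genes went the same way as the vesicular glutamate transporters. Slc1a2 was at 4.11 ± 0.844 in the VTA and 8.79 ± 2.37 in the thalamus (-1.0 ± 0.177, adjusted p = 0.000445, limma). The differences of Slc1a3 (-0.86 ± 0.22, adjusted p = 0.00799) and Glul (-0.65 ± 0.193, adjusted p = 0.0184) were smaller, and that of Glul was not called by limma without GqVeh mouse 802 (adjusted p = 0.0651) or 784 (adjusted p = 0.0713). With a constant of 0.1 in place of 0.5, Gad1 (adjusted p = 0.196), Slc1a3 (0.0918) and Glul (0.132) were not called. With no filter on low genes the same genes were not called by limma (adjusted p = 0.253, 0.123 and 0.0994). When every column was thinned to the depth of the shallowest, limma called none of the clearance genes (Slc1a2 0.0785, Slc1a3 0.243 and Glul 0.134), nor Gad1 (0.746).

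The SN differed from the thalamus in 6 of the 8 genes, 3 higher and 3 lower, against 12.8% of 7488 genes called. Gad1 averaged 1.83 ± 0.808 in the SN and 0.277 ± 0.0625 in the thalamus (log2 difference 1.51 ± 0.278, adjusted p = 0.000106, limma). Gad2 (1.14 ± 0.298, adjusted p = 0.00701) and Slc32a1 (1.02 ± 0.285, adjusted p = 0.0126) were also called higher in the SN, Slc32a1 not without GqVeh mouse 785 (adjusted p = 0.0629) or CNO alone mouse C2W2 (0.0847). On the glutamate side, Slc17a6 was at 0.320 ± 0.349 in the SN and 4.24 ± 1.32 in the thalamus (-2.60 ± 0.267, adjusted p = 3.85e-10, limma), the widest gap of the 8 genes on the midbrain arrays. Slc17a7 (-1.78 ± 0.253, adjusted p = 1.06e-06) and Slc1a2 (-1.07 ± 0.255, adjusted p = 0.00272) were lower as well. The SN values rest on few UMIs, and of the 6 genes called only Slc17a6 and Slc17a7 kept their call when every column was thinned to the depth of the shallowest. With no filter on low genes only Gad1 and Slc17a7 did, and Slc17a6 had an adjusted p of 0.0556 in limma. Slc1a2 was not called with a constant of 0.1 (adjusted p = 0.17).

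The SN and VTA were not separated by any of the 8 genes, in a comparison where 0% of 7121 genes were called by limma and 5.28% had an unadjusted p under 0.05. Gad1 was at 1.83 ± 0.808 in the SN and 1.0 ± 0.835 in the VTA, 0.77 ± 0.32 higher (unadjusted p = 0.0194, adjusted p = 0.841, limma) and higher in 4 of 5 mice. Slc17a6 averaged 0.320 ± 0.349 in the SN and 0.729 ± 0.476 in the VTA, with a log2 difference of -0.62 ± 0.296 (unadjusted p = 0.0411, adjusted p = 0.841, limma) and lower in 4 of 5 mice.

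**Figure D3:**
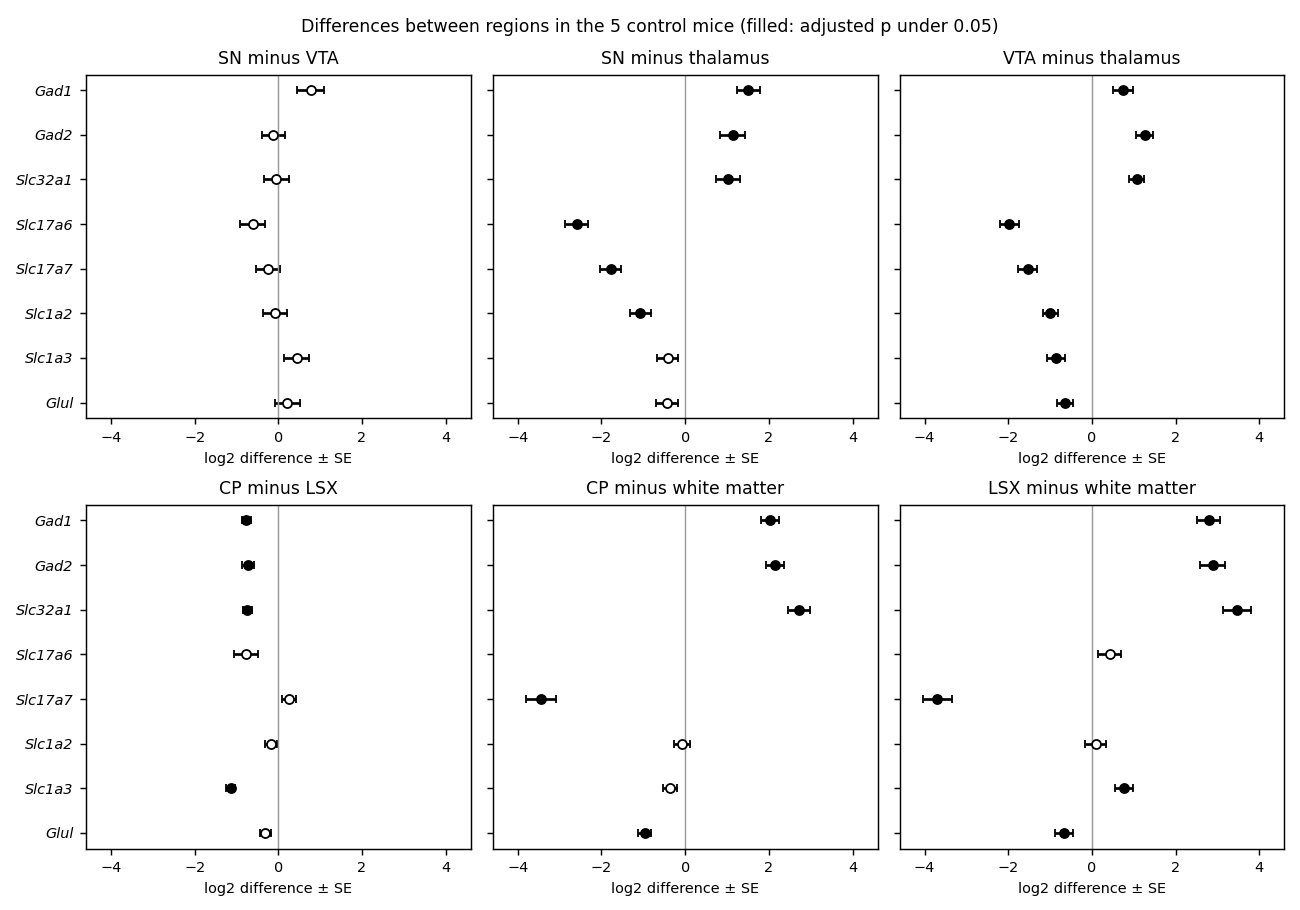
Log2 difference of each of the 8 genes between regions of the same array in the 5 control mice (mean and SE from limma, filled where the adjusted p is under 0.05). Gad1, Gad2 and Slc32a1 lie on the other side of 0 from Slc17a7 against the thalamus and against the white matter, for example 2.02 and -3.45 for Gad1 and Slc17a7 in the CP minus white matter comparison.

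On the striatal arrays, the genes for GABA were lower in the CP than in the LSX, by similar amounts for all 3. Gad1 averaged 5.0 ± 0.50 in the CP and 8.53 ± 0.626 in the LSX (log2 difference -0.77 ± 0.107, adjusted p = 0.00173, limma). Gad2 (2.98 ± 0.331 in the CP and 5.02 ± 1.12 in the LSX, -0.73 ± 0.147, adjusted p = 0.00914) and Slc32a1 (2.54 ± 0.254 and 4.27 ± 0.317, -0.74 ± 0.106, adjusted p = 0.00194) differed by much the same amount. Slc1a3 had the largest difference of the called genes, at 2.14 ± 0.294 in the CP and 4.84 ± 1.01 in the LSX (-1.14 ± 0.11, adjusted p = 0.000322, limma). These 4 genes were lower in the CP of 5 of 5 mice, where 17.7% of 11625 genes were called lower. None of the 4 was called after thinning to the shallowest LSX column (adjusted p = 0.0616 to 0.271). Slc1a2, the other astrocyte transporter, averaged 7.55 ± 1.93 in the CP and 8.59 ± 2.52 in the LSX (-0.17 ± 0.139, adjusted p = 0.401, limma). Without GqVeh mouse 784, whose LSX held 6 discs, 3 more genes were called by limma, namely Slc17a6 (adjusted p = 0.0144), Glul (0.0264) and Slc17a7 (0.0323), the last of these higher in the CP. Slc17a6 was also called without GqVeh mouse 802 (adjusted p = 0.0499). In edgeR the same 3 genes were called, Slc17a6 with a log2 difference of -4.29 (adjusted p = 1.53e-06), Slc17a7 with 0.59 (0.0125) and Glul with -0.22 (0.0433). Slc17a6 averaged 0.00246 in the CP and 0.0502 in the LSX, from 7 and 26 UMIs in control mice, with 2 LSX columns at 0. At such levels the constant of 0.05 shrinks the limma difference.

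The white matter separated the genes most widely. Slc17a7 averaged 0.240 ± 0.144 in the CP and 3.22 ± 1.71 in the white matter, 10.9-fold lower in the CP (log2 difference -3.45 ± 0.362, adjusted p = 0.000162, limma). Slc32a1 went the other way, at 2.54 ± 0.254 in the CP and 0.375 ± 0.198 in the white matter (2.72 ± 0.269, adjusted p = 0.000112). Gad1 was at 5.0 ± 0.50 in the CP and 1.22 ± 0.296 in the white matter (2.02 ± 0.22, adjusted p = 0.000198). Gad2 differed similarly (2.16 ± 0.216, adjusted p = 0.000123), and Glul was lower in the CP, at 4.99 ± 0.503 against 9.82 ± 1.0 in the white matter (-0.97 ± 0.147, adjusted p = 0.00115, limma). In all, 5 of 7 genes tested were called between CP and white matter, with 36.5% of 11720 genes called, and the same 5 were in the same direction in 5 of 5 mice. Slc1a3 was not among them in limma, but was called lower in the CP by edgeR (-0.47, adjusted p = 0.00327) and with a larger constant in limma (adjusted p = 0.0447).

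Between LSX and white matter 6 of 8 genes were called, against 29.8% of 11884 genes. Slc32a1 averaged 4.27 ± 0.317 in the LSX and 0.375 ± 0.198 in the white matter (3.47 ± 0.346, adjusted p = 0.000288, limma), and Gad1 8.53 ± 0.626 and 1.22 ± 0.296 (2.79 ± 0.272, adjusted p = 0.00026). Gad2 followed (2.88 ± 0.301, adjusted p = 0.000364), while Slc17a7 was 13-fold lower in the LSX (-3.70 ± 0.349, adjusted p = 0.000231). Slc1a3 was higher in the LSX by 0.77 ± 0.216 (adjusted p = 0.0271), and not called without GqVeh mouse 802 (adjusted p = 0.0867) or 785 (0.0576) or CNO alone mouse C2W2 (0.0619) or C1W7 (0.0677). Under TMM scaling its adjusted p was 0.159. Glul was lower in the LSX (-0.66 ± 0.22), with an adjusted p of 0.0497 in limma, and of 0.0748 to 0.135 with any 1 of the 5 mice left out and 0.0686 with a smaller constant. After thinning neither Slc1a3 (adjusted p = 0.114) nor Glul (0.18) was called by limma.

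The astrocyte transporters Slc1a2 and Slc1a3 were called in different comparisons, and the difference between them was not tested. Slc1a3 was higher in the LSX than in the CP, while Slc1a2 did not pass the test in any comparison among the striatal regions (adjusted p between 0.401 and 0.803, limma). On the midbrain arrays Slc1a2 was called in both comparisons with the thalamus, and Slc1a3 for the VTA but not the SN (adjusted p = 0.306 for SN minus thalamus, limma).

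Other genes of the same pathways, in lists of 7 genes for GABA uptake and breakdown and 19 for glutamate synthesis and recycling, showed regional differences of their own. In the CP against the LSX, 1 of the 23 genes tested was called higher and 9 lower, beside 11.2% higher and 17.7% lower over all genes. Slc17a8, the third vesicular glutamate transporter, was at 0.131 ± 0.0176 in the CP and at 0 UMIs in the LSX of all control mice (adjusted p = 0.000165, limma). Slc25a18, a mitochondrial glutamate carrier, averaged 0.0707 ± 0.0156 in the CP and 0.822 ± 0.331 in the LSX (log2 difference -2.77 ± 0.211, adjusted p = 0.000122), and Slc6a11, an astrocyte GABA transporter, 0.216 ± 0.0468 and 0.781 ± 0.159 (-1.64 ± 0.129, adjusted p = 0.00014). Slc25a22, a second mitochondrial glutamate carrier, was lower too (-1.19 ± 0.0973, adjusted p = 0.000163).

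Against the white matter, 7 of 22 list genes tested were called higher and 4 lower in the CP, beside 22.2% and 14.3% of all genes. In the LSX 10 of 22 were called higher and 1 lower, beside 20.2% and 9.58% of all genes. Abat, the enzyme that breaks GABA down, averaged 2.04 ± 0.293 in the CP and 0.758 ± 0.301 in the white matter (1.46 ± 0.255, adjusted p = 0.00245, limma). Slc1a1, the neuronal glutamate transporter, was higher in the CP (1.48 ± 0.299, adjusted p = 0.00521) and in the LSX (1.64 ± 0.345, adjusted p = 0.00877). Slc38a2, a glutamine transporter, was lower in both, at 0.357 ± 0.0451 in the CP and 0.283 ± 0.120 in the LSX against 1.04 ± 0.270 in the white matter (-1.40 ± 0.169 and -1.74 ± 0.245). Slc17a8 was higher in the CP (1.65 ± 0.258), where Slc25a18 (-1.30 ± 0.228) and Aldh9a1, an aldehyde dehydrogenase (-0.74 ± 0.224), were lower, and Slc6a11 (1.69 ± 0.317) and Slc25a22 (1.56 ± 0.249) were higher in the LSX.

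On the midbrain arrays, Slc25a12, a mitochondrial aspartate and glutamate exchanger (-0.78 ± 0.265, adjusted p = 0.0427, limma), and Slc38a2 (-0.77 ± 0.256, adjusted p = 0.0392) were among the 3 of 20 genes tested that were lower in the SN than in the thalamus, beside 9.4% of all genes. Slc25a18 (-0.92 ± 0.239, adjusted p = 0.00854) and Slc6a11 (1.64 ± 0.516 in the VTA and 2.91 ± 0.877 in the thalamus, adjusted p = 0.031) were among the 5 of 21 lower in the VTA, beside the 13.5% given above. None of the 2 lists was called higher than in the thalamus, and none was called between SN and VTA.

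Over the 15 striatal columns of the control mice, which share mice and arrays, the genes for GABA had each other among the genes with the most similar pattern. By Pearson's r of log2 levels, given as a description, Gad1 was closest to Ncdn (r = 0.982), Slc32a1 (0.980) and Gad2 (0.978) among 3474 genes with a mean level of at least 0.5. Gad2 was closest to Ncdn (0.984), and Slc17a7 to Tmod2 (0.962) and Cck. Glul was closest to Pkp4 (0.983) and Slc1a3 to Shank1 (0.943). Gad1 ran opposite to Slc17a7 (r = -0.876).

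Over the 15 midbrain columns the 3 genes for GABA were less alike, at lower levels and depth. There r was 0.466 between Gad1 and Gad2, 0.610 between Gad1 and Slc32a1 and 0.760 between Gad2 and Slc32a1. Slc17a6 was closest to Kalrn (r = 0.976), Dgkh (0.957) and Slc29a1 (0.95) among 3777 genes, and Slc17a7 to Cacna2d1 (0.938). Slc1a2 was closest to Kcna2 (0.959). Slc1a3 was closest to Slc25a18 (0.865). Slc1a2 went with Slc17a6 over these columns (r = 0.848), and Gad2 against it (r = -0.836).

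Whether dopamine neuron activation went with different levels of these genes was asked by setting GqCNO mice against all 5 control mice, per region. No member was called by limma in any region, nor by edgeR on the recovered UMIs. The background of called genes was 0.648% in the SN, 1.52% in the VTA, 0.0367% in the white matter and 0% in the thalamus, CP and LSX. Of the 43 tests of a gene in a region, 3 had an unadjusted p under 0.05 (2 in the SN and 1 in the thalamus), and the lowest adjusted p was 0.401. Over all genes, unadjusted p-values under 0.05 made up 7.82% in the SN, 10.8% in the VTA, 3.34% in the thalamus, 3.7% in the CP, 3.19% in the LSX and 2.96% in the white matter. A gene was tested where its mean level passed 0.25 in the midbrain or 0.05 in the striatum, which left out Slc17a7 in the SN, Gad2 and Slc32a1 in the thalamus, and Slc17a6 in the CP and white matter.

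The CP, with the deepest columns, had the smallest error of any region for 6 of the 7 genes tested there, Slc17a7 being the exception. Log2 differences of the 7 genes tested there lay between -0.03 and 0.24, with a median of 0.15 beside -0.00108 over all genes. GqCNO mice 801 and 804 were on array pair 1 with control mice 802 and C2W2, so groups and pairs were not balanced. Within pairs 1 and 2 the differences were -0.07 and -0.01 for Gad1, -0.04 and -0.03 for Gad2, and -0.02 and 0.09 for Slc32a1. For Slc17a7 they were -0.21 and 0.09, for Slc1a2 -0.04 and 0.30, for Slc1a3 -0.02 and 0.24 and for Glul 0.18 and 0.10. Gad1 differed by -0.03 ± 0.104 (SE, adjusted p = 0.999, limma). Slc1a2 was at 9.40, 9.30 and 7.59 in GqCNO mice, 9.48, 5.37 and 6.40 in GqVeh mice and 9.68 and 6.83 in CNO alone mice, overlapping throughout (0.24 ± 0.182). Glul was at 6.55, 5.85 and 4.99 in GqCNO mice, 5.80, 4.56 and 4.71 in GqVeh mice and 5.15 and 4.73 in CNO alone mice (0.21 ± 0.122, adjusted p = 0.999, limma).

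**Figure D4:**
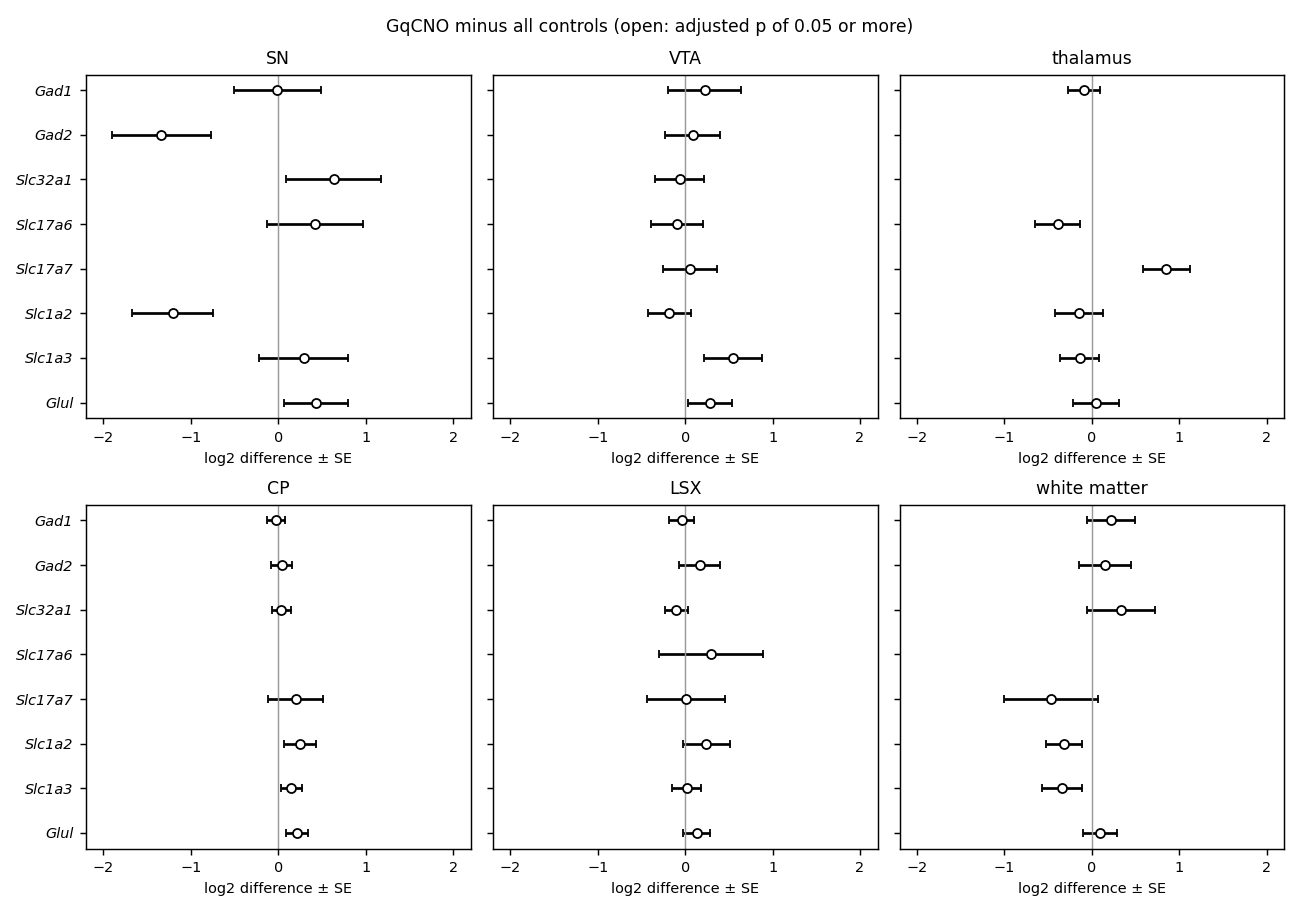
Log2 difference of GqCNO minus all 5 control mice for each of the 8 genes in each region (estimate and SE from limma, genes under the level minimum left out). No adjusted p is under 0.05, and the SE is smallest in the CP (0.104 for Gad1) and widest for Slc17a6 in the LSX (0.596), followed by Gad2 in the SN (0.562).

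In the thalamus, Slc17a7 was at 3.78 and 3.41 in GqCNO mice 804 and 781, from 168 and 132 UMIs, 2.84, 1.82 and 1.79 in GqVeh mice and 0.742 and 2.25 in CNO alone mice. Both GqCNO values lay above all 5 control values, as in 3.67% of all thalamic genes tested. The log2 difference was 0.85 ± 0.27 (unadjusted p = 0.00515, adjusted p = 0.998, limma), and 1.07 and 0.68 within array pairs 1 and 2. Leaving out 1 mouse at a time moved it between 0.63 and 0.99. An exact two-sided permutation test over the 21 ways to choose the GqCNO mice gave p = 0.143, where 0.0476 is the smallest it allows.

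Slc17a6, the other vesicular glutamate transporter, lay below all controls in the thalamus of both GqCNO mice (values above), as in 3.97% of all thalamic genes tested, with a log2 difference of -0.39 ± 0.254 (unadjusted p = 0.137, adjusted p = 0.998, limma). The gap was -0.83 within array pair 1 and -0.09 within pair 2. As a share of the UMIs of both transporters, Slc17a7 made up 52.6% and 56.2% in GqCNO mice, 35.2% to 36.1% in GqVeh mice and 10.9% and 39.1% in CNO alone mice, or 300 of 550 UMIs in GqCNO and 210 of 616 in control mice. The log2 ratio of Slc17a7 over Slc17a6 averaged 0.22 ± 0.13 in GqCNO mice (SD, n = 2) and -1.02 ± 0.78 in controls (n = 5), a difference of 1.24 with an exact permutation p of 0.0952. No other of the 18 ratios tested (Gad1 over Gad2, Slc17a7 over Slc17a6 and Slc1a2 over Slc1a3 in 6 regions) had a smaller p. Adjusted by Benjamini-Hochberg over the 18 ratios, this permutation p was 0.857. The summed level of cortical excitatory neuron markers overlapped, at 2.12 and 2.70 in GqCNO and 2.09 to 3.34 in control mice. That of thalamic neuron markers did too, at 36.2 and 42.0 against 35.9 to 43.8. The thalamic list holds Prkcd, Ptpn3 and Synpo2, by which the authors picked thalamic discs, so its overlap is no separate check.

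Gad2 also lay below all controls in the thalamus of GqCNO mice, at 0.0674 and 0.0516 (3 and 2 UMIs). Control levels were 0.547, 0.135 and 0.112 in GqVeh mice and 0.124 and 0.300 in CNO alone mice, from 25 UMIs together. A count of 0 allows up to 0.371 in mouse C2W2 and 0.112 in mouse 785, so the lowest control levels are not resolved from the GqCNO levels. Such a position held for 3.97% of the thalamic genes tested, a set that leaves Gad2 out. The mean of Gad2 was under the level minimum, so it had no limma test, and the exact permutation p was 0.143. The 3 genes for GABA made up 4.20% and 5.38% of the 5 synthesis and packing genes in the thalamus of GqCNO mice and 5.17% to 11.5% in control mice, which overlapped.

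In the SN the 2 smallest unadjusted p-values belonged to Slc1a2 and Gad2, both lower in GqCNO mice. Slc1a2 was at 0, 6.51 and 1.36 in GqCNO mice 801, 804 and 781, 3.83, 3.44 and 4.21 in GqVeh mice and 2.91 and 5.01 in CNO alone mice. GqCNO held both the lowest values and the highest one. The log2 difference was -1.21 ± 0.459 (unadjusted p = 0.00834, adjusted p = 0.401, limma), -0.26 without mouse 801 and -2.16 without mouse 804, and -0.11 in edgeR, which weighs counts by depth. Mouse 801 had 1 disc and 7779 UMIs in the SN, and a count of 0 there allows up to 3.86.

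Gad2 in the SN was at 0, 0.514 and 0 in GqCNO mice, 0.404, 2.58 and 0.877 in GqVeh mice and 1.06 and 1.25 in CNO alone mice, so that GqVeh mouse 802 lay within the GqCNO range. Its log2 difference was -1.34 ± 0.562 (unadjusted p = 0.0174, adjusted p = 0.507, limma, exact permutation p = 0.0536 of a smallest possible 0.0179). The 2 GqCNO mice at 0 UMIs allow levels of up to 3.86 and 2.04, above all or most control levels, so a difference was not detectable at this depth. After thinning to 7779 UMIs the sign turned to 0.35. That value comes from a single random draw, with 3 UMIs of Gad2 in GqCNO mice before it, and decides nothing.

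Glul in the SN met the same limit. It was at 23.1, 8.40 and 2.72 in GqCNO mice, 6.66, 5.15 and 8.25 in GqVeh mice and 5.81 and 4.73 in CNO alone mice, where 23.1 stands for 18 UMIs of mouse 801 (exact 95% interval 13.7 to 36.5). GqCNO held both extremes, and the log2 difference of 0.43 ± 0.366 (adjusted p = 0.768, limma) was -0.28 without mouse 801 and 1.16 without mouse 781. Slc32a1 was at 1.29, 0.857 and 2.04 in GqCNO mice, 0.404, 0.859 and 1.05 in GqVeh mice and 1.06 and 0.278 in CNO alone mice (0.63 ± 0.544, adjusted p = 0.77, limma).

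Markers of other cells moved in the same SN and VTA columns. Summed levels of 12 astrocyte markers were 45.5 to 83.6 in the SN of GqCNO mice and 37.3 to 52.4 in control mice, with 1 of 12 called higher, and 43.6 to 64.6 and 27.1 to 44.1 in the VTA, with 2 of 12 called higher. Microglial markers were at 34.7 to 67.3 in the SN of GqCNO mice and 3.44 to 44.7 in controls, with 2 of 11 tested called higher, and at 35.3 to 92.9 and 4.53 to 26.8 in the VTA, with 7 of 11 called higher. Of the 4 blood cell markers 3 were called higher in the SN, where their sum was 7.47 to 32.1 in GqCNO mice and 0.202 to 18.5 in controls. General neuron markers were at 45.7 to 67.3 in the SN of GqCNO mice and 60.1 to 110 in controls, and at 42.3 to 71.5 and 80.8 to 121 in the VTA, with 2 and 3 of 12 called lower. Dopamine neuron markers were at 16.7 to 69.3 in the SN of GqCNO mice and 63.4 to 113 in controls, and at 16.7 to 46.6 and 61.4 to 94.7 in the VTA. Markers of midbrain GABA neurons were at 1.36 to 7.71 in the SN of GqCNO mice and 0.202 to 2.11 in controls, with 1 of 2 tested called higher. In the VTA they overlapped, at 0.420 to 3.26 and 0.387 to 1.29. The SN of mice 801 and 781 rested on 1 disc each, where a count of 0 for a gene allows up to 3.86 and 2.04. Pvalb is in the list of midbrain GABA neurons and in that of interneurons. Interneuron markers were at 2.04 to 9.0 in the SN of GqCNO mice and 0.278 to 3.16 in controls, and at 2.81 to 10.2 in the VTA of GqCNO mice and 0 to 3.09 in controls. Over all genes, 23 of 6174 were called higher and 17 lower in the SN, and 76 of 6312 higher and 20 lower in the VTA. The dopamine neuron, astrocyte and microglia lists hold genes that the authors used to pick or drop discs. The part of these marker shifts in the levels of the 8 genes was not tested.

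In the VTA the log2 differences between GqCNO mice and all controls lay between -0.18 and 0.54, with a median of 0.07 beside -0.06 over all genes. Slc1a3 had the largest, at 1.5, 0.746 and 2.47 in GqCNO mice, 0.703, 0.981 and 0 in GqVeh mice and 1.78 and 1.60 in CNO alone mice. Against GqVeh alone the difference was 1.02 ± 0.371 (unadjusted p = 0.0118, adjusted p = 0.313, limma), and 0.55 without GqVeh mouse 785, which had 2 discs and no Slc1a3 UMI. The difference between GqVeh and CNO alone mice was -1.19 ± 0.415 (unadjusted p = 0.00904, adjusted p = 1, limma), and -0.71 without mouse 785. Gad2 was at 1.32, 2.74 and 0.562 in GqCNO mice, 1.05, 1.91 and 0.775 in GqVeh mice and 1.48 and 1.17 in CNO alone mice (0.09 ± 0.313), and Slc17a6 differed by -0.09 ± 0.298.

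In the white matter Slc1a2 was at 5.02, 6.77 and 7.13 in GqCNO mice, 7.18, 7.20 and 8.01 in GqVeh mice and 9.51 and 7.22 in CNO alone mice. All 3 GqCNO values lay below all 5 control values, as in 1.34% of all white matter genes tested. The difference was -0.32 ± 0.208 (adjusted p = 0.998, limma) with an exact permutation p of 0.0179, the smallest that the 56 splits allow. Adjusted by Benjamini-Hochberg over the 43 tests of a gene in a region, this permutation p was 0.768. The gap was -0.50 within array pair 1 and -0.07 within pair 2. Slc1a3 differed in the same direction (-0.34 ± 0.229, adjusted p = 0.998, limma), and the summed astrocyte markers were at 35.3 to 42.0 in GqCNO and 41.0 to 47.5 in control mice, with none of them called.

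In the LSX no gene differed by more than 0.29 on the log2 scale, the value of Slc17a6, whose level there rested on 18 UMIs at most per GqCNO mouse. Gad2 was at 4.48, 8.82 and 4.31 in GqCNO mice, 4.95, 6.79 and 4.41 in GqVeh mice and 5.17 and 3.80 in CNO alone mice (0.17 ± 0.236, adjusted p = 0.924, limma). The high values came from GqCNO mouse 804 and GqVeh mouse 784, with 7 and 6 LSX discs.

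Against each control group alone, and between the control groups, limma again called none of the 8 genes. The shares of all genes called against GqVeh were 0.194% in the SN, 0.475% in the VTA, 0.0462% in the CP, 0.0367% in the white matter and 0% in the thalamus and LSX. Against CNO alone they were 0.615% in the SN, 1.12% in the VTA and 0% elsewhere, and 0.0648% (SN), 0.0792% (VTA) and 0% elsewhere for GqVeh against CNO alone. Unadjusted p-values under 0.05 numbered 4 of 43 against GqVeh (2 in the SN and 1 each in the VTA and thalamus), 3 against CNO alone (2 in the SN and 1 in the thalamus) and 1 for GqVeh against CNO alone (in the VTA). Over all genes they made up 6.09% in the SN, 10.9% in the VTA, 1.3% in the thalamus, 4.04% in the CP, 3.69% in the LSX and 2.62% in the white matter against GqVeh. Against CNO alone they made up 6.06% in the SN, 6.1% in the VTA, 9.38% in the thalamus, 2.52% in the CP, 1.16% in the LSX and 4.21% in the white matter, and for GqVeh against CNO alone 1.46%, 2.04%, 7.84%, 3.68%, 0.96% and 4.16% in the same order of regions. Thalamic Slc17a7 had the lowest adjusted p against CNO alone (log2 difference 1.14, unadjusted p = 0.00202, adjusted p = 0.35, limma). Without CNO alone mouse C1W7, which leaves mouse C2W2 with 6 UMIs of Slc17a7 as the whole group, this was 1.72 ± 0.311 with an adjusted p of 0.0151 in limma, the lone mouse being assumed to vary like the other groups. Against GqVeh it was 0.65 (unadjusted p = 0.0392, adjusted p = 0.999, limma).

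Whether the response differed between regions was tested on differences within a mouse, and none of the 8 genes was called. All genes gave 0% called for SN minus VTA, 0.572% for VTA minus thalamus and 0% for CP minus LSX. The response of Gad2 differed by -1.42 ± 0.521 (log2, SE) between SN and VTA (unadjusted p = 0.00983, adjusted p = 0.895, limma). That of Slc17a7 differed by -0.83 ± 0.422 between VTA and thalamus (adjusted p = 0.532, limma).

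None of the 26 other pathway genes was called between GqCNO and control mice in any region, in limma. The smallest unadjusted limma p-values in the VTA belonged to Slc25a12 (log2 difference -0.74 ± 0.287, unadjusted p = 0.0165, adjusted p = 0.314, limma) and Slc38a3, a glutamine transporter of astrocytes (0.67 ± 0.261, unadjusted p = 0.017, adjusted p = 0.318, limma). Slc38a3 had the smallest in the white matter too, with the opposite sign (-1.08 ± 0.427, unadjusted p = 0.0186, adjusted p = 0.998, limma). In the CP they were those of Slc1a4 (-0.32 ± 0.106, unadjusted p = 0.0108, adjusted p = 0.999, limma) and Slc25a18 (-0.31 ± 0.119, unadjusted p = 0.0228), and in the SN those of Got1 (-0.85 ± 0.488, unadjusted p = 0.0799) and Glud1 (-0.76 ± 0.44, unadjusted p = 0.0833). The thalamus (Slc1a4 and Slc38a2) and LSX (Glud1) had no unadjusted p under 0.05 in these lists.

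Several of the 8 genes differed between the array pairs in the CP. All 3 groups stand in each pair, though not in equal parts. In pair 2, Slc17a7 was at 0.154 in the GqCNO mouse, 0.128 and 0.134 in the GqVeh pair of mice and 0.167 in the CNO alone mouse. In pair 1 it was at 0.333 and 0.312 in GqCNO, at 0.312 in GqVeh and at 0.459 in CNO alone. No value of pair 2 reached the lowest of pair 1. With the group in the model, pair 2 minus pair 1 was -1.02 ± 0.094 on the log2 scale for Slc17a7 (adjusted p = 2.92e-07, limma) and -0.50 ± 0.0822 for Slc1a2 (adjusted p = 0.000139). Gad2 (-0.27), Glul (-0.26) and Slc1a3 (-0.22) were also called lower in pair 2, which makes 5 of 7 genes, where 29% of all CP genes were called and 19.9% were lower. Gad1 (-0.09 ± 0.0764) and Slc32a1 (-0.04 ± 0.0798) were not called. The summed cortical markers were also lower in pair 2, at 0.727 to 1.05, against 1.33 to 2.02 in pair 1, and their part in the Slc17a7 level was not tested. None of the 8 genes was called between pairs in the other 5 regions. In the LSX, with 0% of all genes called, pair 2 minus pair 1 was -0.99 ± 0.384 for Slc17a7 and -0.72 ± 0.181 for Slc1a2. Only Slc32a1 (0.03 ± 0.126) and Slc17a6 (0.24 ± 0.636) were above 0 there. In the VTA, also with 0% called, it was -0.66 ± 0.207 for Glul, and above 0 only for Slc1a3 (0.12 ± 0.341). The lack of calls thus does not show that the pairs were alike in these regions.

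**Figure D5:**
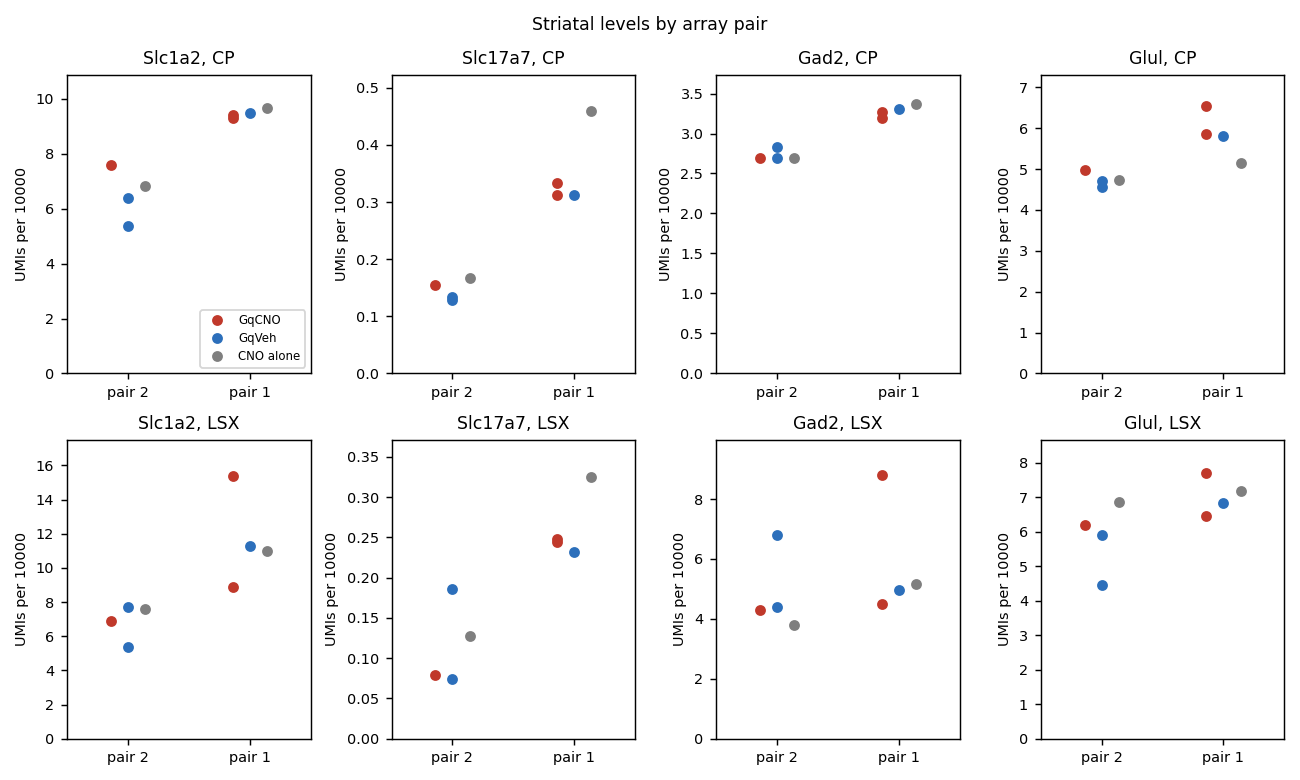
Levels (UMIs per 10000 UMIs) of Slc1a2, Slc17a7, Gad2 and Glul in the CP and LSX by array pair, 1 point per mouse, for GqCNO, GqVeh and CNO alone mice. In the CP, Slc17a7 lies between 0.128 and 0.167 in pair 2 and between 0.312 and 0.459 in pair 1, with GqCNO and control mice side by side in each pair.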

How the data were processed

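Gene expression was measured on Visium spatial arrays (v1 chemistry), with 4 arrays of 4 mice and 3 regions each. The authors aligned reads to mm10 and counted UMIs with Space Ranger (version not given in the sources used here), chose discs for each region, and deposited a signal per gene, region and mouse, averaged over discs and normalized to the median. The deposited signal was in whole multiples of 1 step per column (100% of values under 200 steps, within 0.05 steps), which gave the UMIs. A region label per disc, also deposited by the authors and of another kind, served only to count discs.

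Columns were rescaled to 10000, and log2(level + 0.5) in midbrain or log2(level + 0.05) in striatal regions was fitted with limma 3.58.1 (R 4.3.3) with a variance trend and 3 group means, over genes with a mean of at least 0.25 or 0.05. A gene missing from 1 file of a tissue was set to 0. Region differences were fitted on differences per mouse in the 5 control mice. Exact permutation tests were two-sided, over 56 splits of the mice (21 in the thalamus). Nothing states that the mice of a group share no litter or cohort, and p-values measure the spread between these mice. Alternatives were values as deposited, TMM scaling and a quasi-likelihood test of edgeR 4.0.16, other constants, no filter, the array pair as a block, thinning to equal depth, the tests named in the study's methods and leaving out each mouse. Each thinning was a single random draw. The limma step was tested on simulated data with known changes. The 8 genes, the lists and the tests were chosen with earlier results of these data known. Named besides the 8 genes were, of the 2 pathway lists, genes called between groups, the 3 largest called differences per direction and region pair, and up to 2 genes with the smallest p per region for GqCNO against all controls, and the genes most like each of the 8, up to 3 per tissue, less a few that are not reported here. Cell type markers were summed as lists. Promoters and coordinates are from RefSeq tables of GRCm38.p6.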

Additional observations from a re-analysis of the deposited data

Results flagged for a closer look

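Among 48 groups of 5 control mice (8 genes in 6 regions), 1 held a mouse far from the others, and about 1 in 20 such groups is expected to by chance alone. In the VTA, Slc17a6 was at 1.55 UMIs per 10000 UMIs in GqVeh mouse 785, against 0.687 in the next highest and 0.343 in the lowest control mouse, so that the gap made up 0.715 of the whole range. The value rests on 4 UMIs of 25808, from 2 discs.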

How the results depend on the processing

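No called difference changed its sign under any alternative tried. Between groups, limma and edgeR called none of the 8 genes under any setting, except that Slc17a7 was called in the thalamus against CNO alone without mouse C1W7 (0 to 1 gene over the mice left out). The methods' test at an unadjusted p under 0.05 picked 1 gene each in the SN against CNO alone (Gad2), the thalamus against all controls (Slc17a7) and against CNO alone (Slc1a3), and the white matter against CNO alone (Slc1a3), and the methods' multiple-group test none. Between regions, calls for SN minus thalamus numbered 6, but 2 with no filter (Gad1 and Slc17a7) and 2 after thinning (Slc17a6 and Slc17a7; 5 to 6 with a mouse left out). For VTA minus thalamus they numbered 8, but 5 with the smaller constant, 5 with no filter and 4 after thinning (6 to 8). For CP minus LSX there were 4, but 7 in edgeR and 0 after thinning (4 to 7), for LSX minus white matter 6, but 4 after thinning (4 to 6), and for CP minus white matter 5, but 6 in edgeR and with the larger constant (5 to 5). The shares of all genes called under these alternatives are not given here. The counts thus do not show whether a change is particular to the 8 genes. Of 722 single values between groups under alternatives, 64 of uncalled values changed sign. Thinning went down to 7779 UMIs in the SN, where depth limits all statements. With 1 GqCNO mouse in array pair 2, within-pair values have no test.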
